A study of Mus musculus with 24 samples.

Results

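Genes of the megakaryocyte and platelet lineage were examined in HSCs of young and old mice. They are the genes *Vwf*, *Pf4*, *Gp1ba*, *Gp5*, *Gp9*, *Treml1*, *Gata1*, *Nfe2* and *Zfpm1*, a list fixed by name with no threshold on a measured value. The list was chosen with earlier results of these data known. Of these 9 genes, 7 were among the 18762 genes of the expression table, while *Gp5* and *Treml1* were not analysed here. All 7 passed the minimum mean of 10 normalized read counts that defined the 12354 genes tested.

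Megakaryocytes are the large bone marrow cells that shed platelets, and a share of HSCs already carries transcripts of this lineage, a state known as platelet priming. Platelets stick to injured vessels when von Willebrand factor, the protein of *Vwf*, bridges the vessel wall and the glycoprotein Ib-IX-V receptor, to which *Gp1ba*, *Gp5* and *Gp9* contribute subunits. *Pf4* encodes platelet factor 4, a chemokine stored in platelet granules. *Gata1*, its cofactor *Zfpm1* (also called FOG-1) and *Nfe2* encode transcriptional regulators of megakaryocytes and red cells.

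LSK-SLAM cells, a marrow population rich in HSCs that was sorted as CD48- CD150+ cells of the LSK gate, came from C57BL/6 WT mice, 5 young (4 to 5 months in the sample labels) and 7 old (20 to 22 months). The paper gives other ages than the labels. RNA of 15000 sorted cells per mouse was used, and 300 pg of ribosomal-depleted RNA entered the TotalScript kit. A normalized read count gives the reads on a gene per 1000000, after division by the product of library size and a scaling factor. Each mouse had 2 labelled runs and 1 column of values, and was counted once. Recovered reads per mouse ranged from 2.05 M to 5.12 M in young and from 0.861 M to 5.00 M in old mice (M, 1000000 reads), so that 3 reads corresponded to between 0.583 and 3.69 normalized read counts. Every mouse label ends in the letter A or B, whose meaning is not stated. The 6 mice with letter A (2 young, 4 old) had 0.861 M to 3.11 M reads and the 6 with letter B (3 young, 3 old) 3.23 M to 5.12 M, and results are therefore also given within letters. The sort markers were present: *Kit* ranged from 546 to 2049 normalized read counts over all mice and *Slamf1*, which encodes CD150, from 42.6 to 154, while *Cd48* was at most 11.8. As the libraries are of bulk RNA, fewer cells with a transcript and less transcript per cell cannot be told apart.

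The ages were compared on log2(normalized read count + 1) with limma, which fits a linear model to each gene and shares variance information between genes. P-values were adjusted after Benjamini and Hochberg over all genes tested, and genes under 0.05 were called. On this scale the change of low genes is understated. None of the 7 genes was called, against 0.0971% of all genes called higher and 0.00809% called lower in old mice. With the letter as a covariate none of the 7 was called either, against 0.283% higher and 0.0162% lower. At an unadjusted p under 0.05, 2 of the 7 passed in both fits, *Vwf* on the high side and *Pf4* on the low side in old mice. Over all genes 488 of 12354 passed without the letter and 643 with it. Count tests on the recovered reads (edgeR quasi-likelihood and DESeq2) called none of the 7 genes. The 7 genes did not move in one direction: 3 had higher values in old mice (*Vwf*, *Gp1ba*, *Gp9*) and 4 lower (*Pf4*, *Gata1*, *Nfe2*, *Zfpm1*, the signs of the last pair turning in some other fits), with a median difference of -0.17 on the log2 scale against -0.02 over all genes tested. The ages overlapped for each of the 7 genes, while of all genes 0.291% had every old mouse above and 0.17% every old mouse below the young mice.

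**Figure D1:**
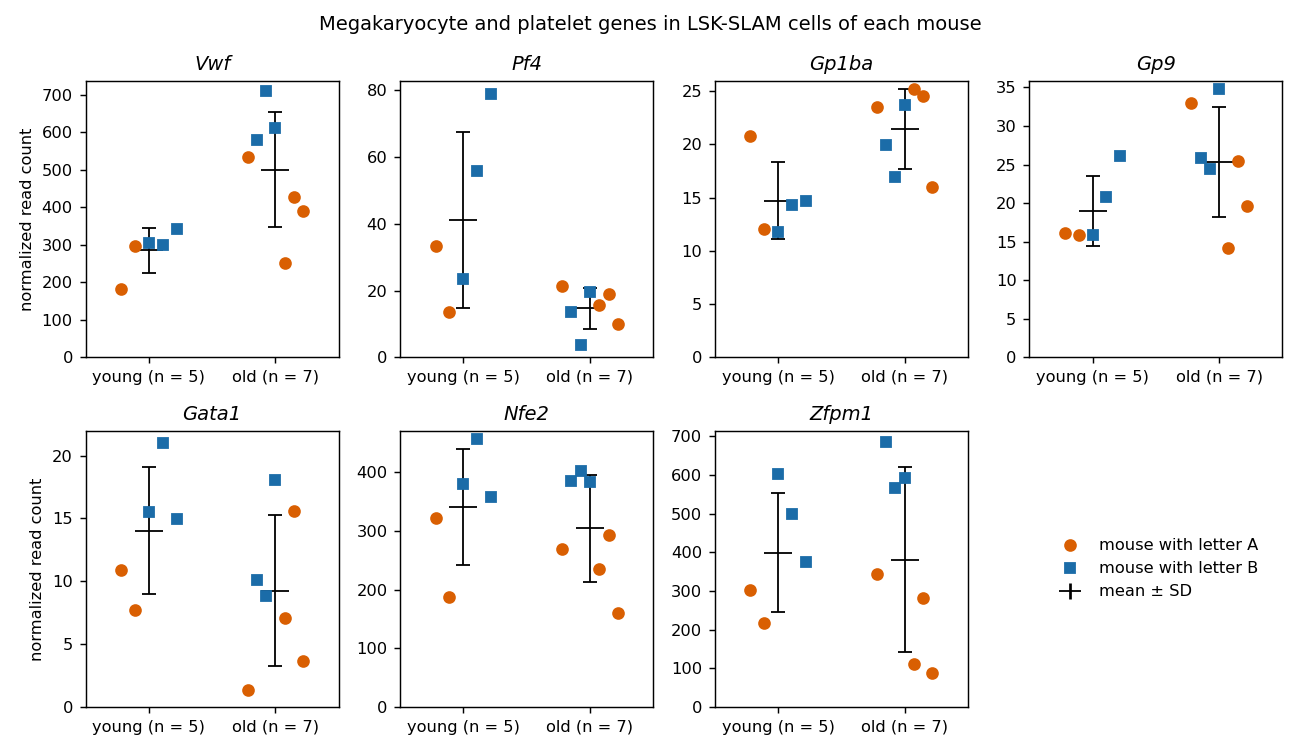
Normalized read counts of the 7 genes (vertical axes, linear, from 0) in each young and old mouse, with circles for letter A, squares for letter B and bars for the mean ± SD of the age. For *Vwf* 6 of the 7 old mice lie above every young mouse, *Pf4* is widely spread in young mice from 13.5 to 79.0, and the squares lie above all circles for *Nfe2* and *Zfpm1*.

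*Vwf* lies at chr6:125546774-125686679 on the plus strand (GRCm38), overlaps no other annotated gene and shares 0.947% of its 50-base words with other transcripts. In the young mice 1 to 5 it had 183, 298, 304, 301 and 341 normalized read counts. In the 7 old mice its lowest value was 251, its median 533 and its highest 710. Old mouse 5 was the only old mouse within the young range, and young mouse 1 lay well below the other young mice. The means were 285 ± 60.0 in the young (SD, n = 5) and 501 ± 154 in the old group (SD, n = 7), a ratio of 1.76, on 318 to 3141 reads per mouse. The difference was 0.77 on the log2 scale (standard error 0.26, limma adjusted p = 0.780), and 0.87 (standard error 0.20, limma adjusted p = 0.0580) with the letter as a covariate. An exact permutation test of this gene alone, two-sided over the 792 ways to choose the young mice, gave p = 0.0189, and p = 0.0100 over the 300 ways that keep the letters. Both p-values of the single-gene test were thus under 0.05, but the call was not reached after adjustment over all genes. Leaving out old mouse 5 in the fit with the letter gave an adjusted p of 0.000632 from limma, leaving out young mouse 2 gave 0.0353, and leaving out young mouse 1 gave 0.299.

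*Gp1ba*, the subunit of the receptor that binds von Willebrand factor, lies at chr11:70639122-70642036 on the plus strand. Its values in the young mice 1 to 5 were 20.8, 12.02, 11.8, 14.3 and 14.7 normalized read counts. In old mice they had a lowest value of 15.99, a median of 23.5 and a highest value of 25.3. Here 4 of the 7 old mice lay above all young mice, and without young mouse 1 the ages would not overlap. The means were 14.7 ± 3.66 (SD, n = 5) and 21.4 ± 3.77 (SD, n = 7), a ratio of 1.45, and the difference was 0.52 (standard error 0.28, limma adjusted p = 1.0) on 13 to 122 reads per mouse. The exact permutation test of the single gene gave p = 0.0152, and 0.0167 within letters.

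*Gp9*, another subunit of the same receptor, lies at chr6:87778072-87779768 on the plus strand. The young mice 1 to 5 had 16.2, 15.9, 15.9, 20.8 and 26.1 normalized read counts, and the old mice had 14.2 at the lowest, 25.5 at the median and 34.8 at the highest. The ranges overlapped broadly, with 2 old mice above and 1 below all young mice. The means were 19.0 ± 4.52 (SD, n = 5) and 25.4 ± 7.13 (SD, n = 7), and the difference was 0.38 (standard error 0.28, limma adjusted p = 1.0). The exact permutation test gave p = 0.125, and 0.0633 within letters.

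*Pf4* lies at chr5:90772435-90773383 on the plus strand. In contrast to *Vwf* it had lower values in old mice. The young mice 1 to 5 had 33.3, 13.5, 23.5, 55.9 and 79.0 normalized read counts, and the old mice had 3.59 at the lowest, 15.8 at the median and 21.2 at the highest. Only young mouse 2 fell within the range of the old mice, and the 2 lowest old mice lay below it. The means were 41.0 ± 26.4 in the young (SD, n = 5) and 14.6 ± 6.22 in the old group (SD, n = 7), 2.80 times higher in young mice, on 8 to 285 reads per mouse. The limma difference was -1.33 (standard error 0.45, adjusted p = 0.796), and -1.31 (standard error 0.41, adjusted p = 0.334) with the letter. The exact permutation test of the single gene gave p = 0.0227, and 0.0367 within letters.

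*Ppbp* encodes pro-platelet basic protein, another chemokine of platelet granules, and is a neighbour of *Pf4* at chr5:90768518-90770063. Its mean was under 10, so that it did not enter the fit. The young mice 1 to 5 had 9.95, 18.7, 2.55, 0.981 and 9.99 normalized read counts, and the old mice 0.326 at the lowest, 1.58 at the median and 3.62 at the highest. The low values in old mice overlapped with those of young mice 3 and 4. The exact permutation test gave p = 0.0404, and 0.00667 within letters, but the values rest on 1 to 39 reads per mouse and 4 of the old mice had 3 reads or fewer.

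*Pf4* and *Vwf* were set side by side in each mouse, a relation chosen after their values had been seen and given as a description. The share is not corrected for length and compares mice, not the levels of both genes, since per kb of exon *Pf4* lay above *Vwf* in young mice (56.9 against 17.8 normalized read counts per kb) and below it in old mice (20.3 against 31.2). *Pf4* amounted to between 4.52% and 23.2% of *Vwf* in young mice (median 18.2%) and to between 0.506% and 6.29% in old mice (median 3.18%). With letter A the range was 4.52% to 18.2% in young and 2.52% to 6.29% in old mice, and with letter B 7.74% to 23.2% and 0.506% to 3.18%.

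**Figure D2:**
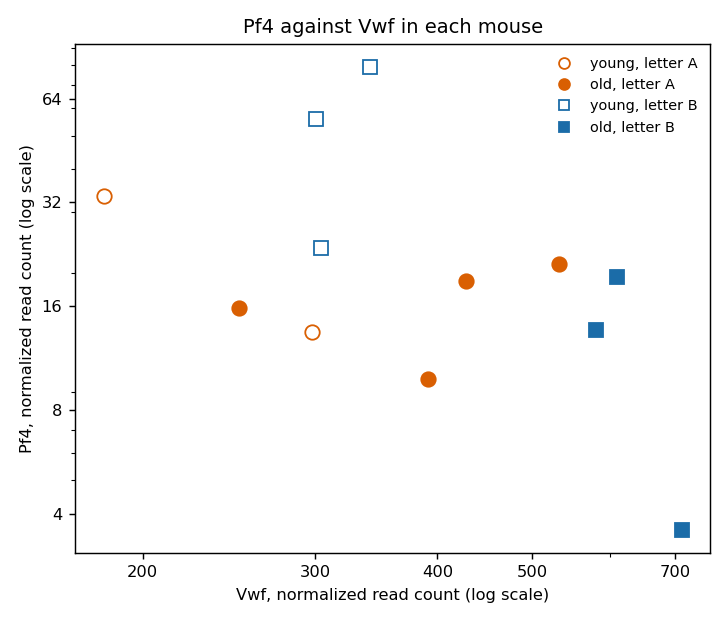
*Pf4* (vertical axis) against *Vwf* (horizontal axis), both in normalized read counts on log axes, 1 point per mouse, open for young and filled for old mice, with circles for letter A and squares for letter B. The filled squares, the old mice with letter B, lie at *Vwf* of 581 to 710 and *Pf4* of 3.59 to 19.4, and the open squares at *Vwf* of 301 to 341 and *Pf4* of 23.5 to 79.0.

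Among the transcription factors, *Gata1*, at chrX:7959260-7978071 on the minus strand, had the lowest mean of the 7 genes in normalized read counts, uncorrected for length. The young mice 1 to 5 had 10.9, 7.69, 15.5, 21.0 and 15.0 normalized read counts, and the old mice had 1.36 at the lowest, 8.81 at the median and 18.1 at the highest. Of the old mice 3 lay below all young mice, but old mice 1 and 7 had only 3 reads each. The means of 14.0 ± 5.04 (SD, n = 5) and 9.25 ± 6.01 (SD, n = 7) gave a limma difference of -0.76 (standard error 0.56, adjusted p = 1.0). The exact permutation test gave p = 0.172, and 0.197 within letters.

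*Nfe2*, at chr15:103248212-103258403 on the minus strand, had young values of 322, 187, 380, 456 and 358 normalized read counts in mice 1 to 5. The old mice had 160 at the lowest, 294 at the median and 402 at the highest. The mean was 341 ± 98.8 in the young (SD, n = 5) and 305 ± 90.8 in the old group (SD, n = 7), a limma difference of -0.17 (standard error 0.26, adjusted p = 1.0). With the letter as a covariate it was -0.04 (standard error 0.19), and the exact permutation test gave p = 0.566.

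*Zfpm1*, at chr8:122282141-122337251 on the plus strand, overlaps the annotated gene *Gm20388* on the same strand, and shares 0 of its 50-base words with transcripts of other genes. Its young values were 303, 216, 601, 499 and 374 normalized read counts in mice 1 to 5, and its old values 87.3 at the lowest, 343 at the median and 684 at the highest. The means were 399 ± 153 (SD, n = 5) and 381 ± 238 (SD, n = 7), and the difference was -0.32 (standard error 0.46, limma adjusted p = 1.0; exact permutation p = 0.581).

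Levels of different genes were compared per kb of annotated exon. This length takes all annotated exons of a gene together, so it can exceed that of the transcript present. The order of the genes depends on it, and other lengths were not tried. In young mice *Nfe2* and *Zfpm1* had the same level of 114 normalized read counts per kb, followed by *Pf4* with 56.9, *Gp9* with 21.5, *Vwf* with 17.8, *Gata1* with 5.75 and *Gp1ba* with 5.42. In old mice *Zfpm1* (109 per kb) and *Nfe2* (102 per kb) again came first, while *Vwf* (31.2 per kb) stood above *Gp9* (28.8 per kb) and *Pf4* (20.3 per kb), and *Gp1ba* (7.88 per kb) above *Gata1* (3.79 per kb). The intervals of mean ± 1 SD of neighbours in this order overlapped in young mice, except for *Vwf* and *Gata1*. In old mice they did not overlap between *Nfe2* and *Vwf*, between *Pf4* and *Gp1ba* and between *Gp1ba* and *Gata1*.

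Within the letters, 6 of the 7 genes had the same sign of the age difference in A and B, the exception being *Zfpm1* with -0.55 (standard error 0.45) in A and 0.34 (standard error 0.18) in B. Among mice with letter A alone none of the 7 genes was called, against 0.00809% of all genes in either direction. There 0 of the 7 had an unadjusted p under 0.05, against 318 of the 12354 genes tested (limma). Among mice with letter B alone 2 of the 7 were called, *Vwf* higher and *Pf4* lower in old mice, against 0.656% of all genes higher and 0.154% lower. There *Vwf* was 301 to 341 normalized read counts in the 3 young and 581 to 710 in the 3 old mice, a difference of 1.0 on the log2 scale (standard error 0.16, limma adjusted p = 0.000403). It was called in this set whichever of the 6 mice was left out, with adjusted p-values of at most 0.00788 from limma. *Pf4* differed by -2.11 (standard error 0.47, limma adjusted p = 0.0192) in mice with letter B, a call that was lost without young mouse 4 (adjusted p = 0.159) or young mouse 5 (adjusted p = 0.290). In mice with letter A the differences were 0.73 for *Vwf* and -0.40 for *Pf4*. Whether the age difference itself differed between letters was tested by an interaction term, which called none of the 7 genes against 0.0162% of all genes. Of the 7, *Pf4* alone had an unadjusted p under 0.05 (limma), against 424 of the 12354 genes tested. For *Pf4* the interaction was -1.71 (standard error 0.77, limma unadjusted p = 0.0349, adjusted p = 1.0). With letter B, *Vwf*, *Gp1ba* and *Pf4* had no overlap between the ages, against 6.72% of all genes with every old mouse above and 6.18% with every old mouse below the young mice.

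**Figure D3:**
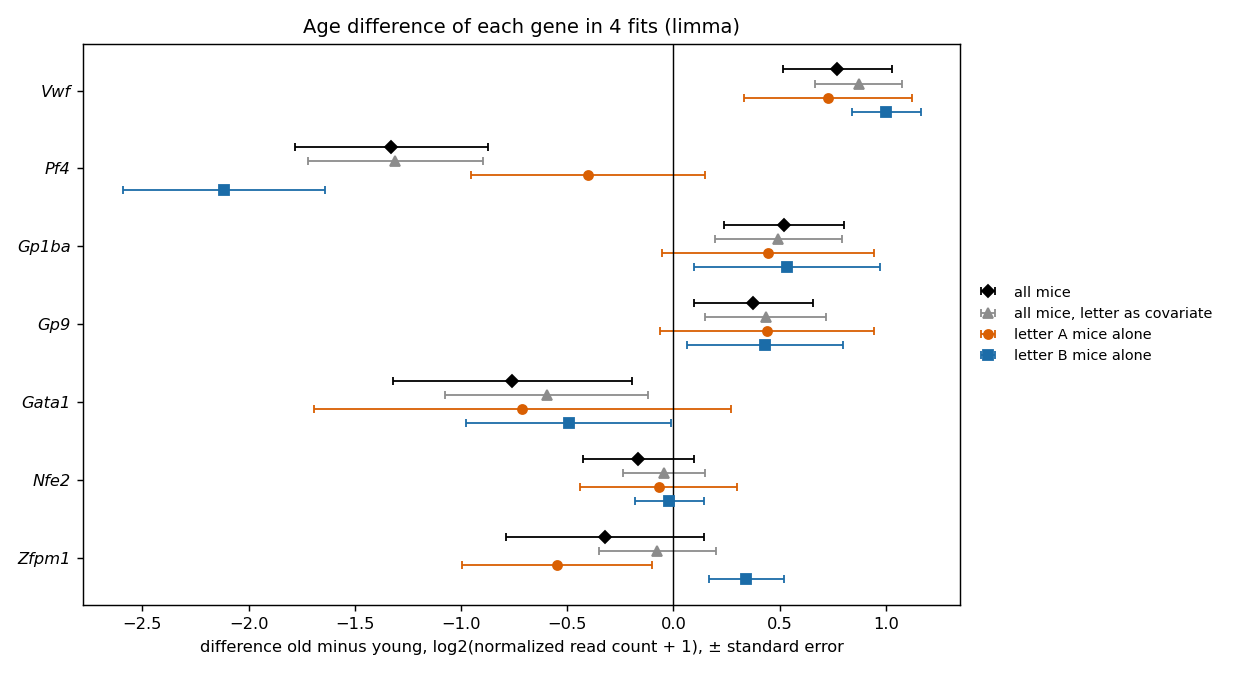
Difference between old and young mice on the log2(normalized read count + 1) scale (horizontal axis) for each of the 7 genes in 4 limma fits: all mice, all mice with the letter as a covariate, letter A alone and letter B alone, with bars for 1 standard error on each side. *Vwf* is positive in every fit, *Pf4* runs from -0.40 in letter A to -2.11 in letter B, and *Zfpm1* changes sign between the letters.

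Some of these genes also differed between the letters. With age as a covariate, *Vwf*, *Nfe2* and *Zfpm1* were called higher in mice with letter B, 3 of the 7 genes, against 10.5% of all genes called higher and 25.6% called lower in B. *Nfe2* ranged from 160 to 322 normalized read counts with letter A and from 358 to 456 with letter B, a difference of 0.72 (standard error 0.19, limma adjusted p = 0.00612). *Zfpm1* ranged from 87.3 to 343 and from 374 to 684, a difference of 1.44 (standard error 0.27, limma adjusted p = 0.000500). For both genes every mouse with letter B lay above every mouse with letter A. How many of all genes separate the letters in this way was not counted, so this is no trait of these genes alone. *Vwf* differed by 0.59 between the letters (limma adjusted p = 0.0241). When values were rescaled by median ratios, the median difference of all genes moved from -0.09 to 0.21, and the 3 genes remained called with differences of 0.89 for *Vwf*, 1.02 for *Nfe2* and 1.74 for *Zfpm1*, joined by *Gata1* with 1.22 (adjusted p = 0.0299, limma). Depth differed between the letters without overlap, and the letter and the depth cannot be told apart.

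Genes that share the role of these members were taken from lists of platelet and megakaryocyte genes, which were also chosen with earlier results of these data known. Among platelet receptors and adhesion molecules, 16 genes could be tested, of which 1 was called higher in old mice and with the letter as a covariate 2, with none lower. Of all genes 0.0971% were called higher without the letter and 0.283% with it. *Selp*, which encodes the platelet and endothelial adhesion molecule P-selectin, had 58.5, 106, 113, 106 and 109 normalized read counts in the young mice 1 to 5, and 140, 503 and 550 as the lowest, median and highest of the old mice. It rose by 1.93 on the log2 scale (standard error 0.32, limma adjusted p = 0.0225), and by 2.06 (standard error 0.23, adjusted p = 1.94e-05) with the letter. *Itgb3*, the integrin beta subunit of the fibrinogen receptor, had 99.5, 97.1, 104, 111 and 121 normalized read counts in young mice and 130, 197 and 316 as the lowest, median and highest in old mice. For both genes all 7 old mice lay above all young mice, as for 0.291% of all genes tested. *Itgb3* rose by 1.09 with the letter as a covariate (standard error 0.18, limma adjusted p = 0.000958), while without it the difference of 1.0 had an adjusted p of 0.105. The integrin partner *Itga2b* was not called, with a difference of 0.07 on the log2 scale (standard error 0.24) and 107 ± 19.8 (SD, n = 5) and 117 ± 40.8 (SD, n = 7) normalized read counts. The ADP receptor *P2ry1* and the ATP-gated channel *P2rx1* had the lowest differences of the list, -0.66 and -0.38, and neither was called. Within letters their differences were -0.79 and -0.33. The exact permutation test of the single gene within letters gave p = 0.01 for *P2ry1* and 0.167 for *P2rx1*.

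Of 12 tested genes of platelet granules and secreted proteins none was called in either direction in the fits without or with the letter. None of them had an unadjusted p under 0.05 without the letter, against 488 of the 12354 genes tested (limma), and their median difference was -0.02. The differences ran from -0.48 for *Serpine2* and -0.43 for *Sparc* to 0.31 for *Timp3* and 0.40 for *Pdgfa*, on the log2 scale. Of 18 tested genes of the platelet cytoskeleton and signalling none was called without the letter and 1 with it, *Cavin2*, which encodes a protein of caveolae. Of all genes 0.283% were called higher with the letter. *Cavin2* had 145 ± 27.0 normalized read counts in the young (SD, n = 5) and 272 ± 78.1 in the old group (SD, n = 7), with 6 of the 7 old mice above all young mice. Its difference was 0.93 with the letter (standard error 0.21, limma adjusted p = 0.0445) and 0.85 without it (adjusted p = 0.456). *Gucy1b1* (0.38), *Syk* (-0.45) and *Tuba8* (-0.37) also lay at the ends of this list and were not called.

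**Figure D4:**
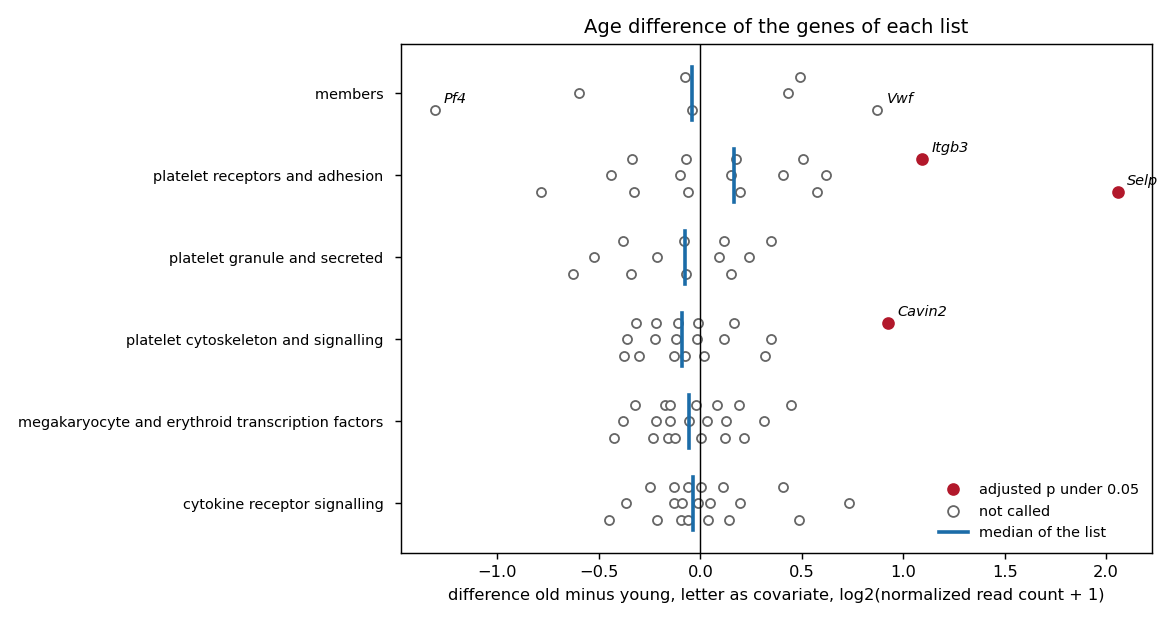
Difference between old and young mice with the letter as a covariate (horizontal axis, log2 scale) for the tested genes of 6 lists, the members, 3 platelet lists, transcription factors and cytokine receptor signalling, 1 circle per gene, filled red where the adjusted p was under 0.05, with a blue line at the median of the list. *Selp*, *Itgb3* and *Cavin2* are the filled circles, at 2.06, 1.09 and 0.93, and the medians of these 6 lists lie between -0.09 and 0.165.

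Of 21 tested genes for megakaryocyte and erythroid transcription factors and 20 for cytokine receptor signalling, none was called between the ages in the fits without or with the letter. At an unadjusted p under 0.05 in limma without the letter, 1 factor was higher and none lower, and 1 signalling gene was higher and 1 lower. Over all genes, 488 of 12354 passed this threshold in either direction. The median differences of the factors and the signalling genes were -0.15 and -0.10. *Ets1* (0.44) and *Klf1* (0.21) had the largest positive and *Myb* (-0.52) and *Ldb1* (-0.45) the largest negative differences among the factors. The signalling genes at the ends of their list were *Socs3* (0.70), *Stat3* (0.31), *Cish* (-0.39) and *Fyn* (-0.48). Between the letters, however, 11 of the 21 transcription factor genes were called higher in B and none lower, as were 8 of the 20 genes of cytokine receptor signalling. Of all genes 10.5% were called higher and 25.6% lower in B. These shares depend on the scaling, since median-ratio rescaling raised the genes called higher in B from 1301 to 3360. The list counts are from the fit without rescaling.

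Markers of other cells were examined beside these values. The summed normalized read counts of 13 endothelial genes were 744 to 872 in young and 632 to 941 in old mice, and *Cdh5*, a defining endothelial marker, ranged from 5.89 to 30.3 and from 4.30 to 30.0. *Vwf* and *Selp* are also expressed by endothelial cells. Over both ages *Cdh5* was 14.5 to 30.3 with letter A and 4.30 to 13.3 with letter B, so its ranges by age also hold the letter. With letter B, where *Vwf* was called, the endothelial sum was 744 to 872 (median 808) in young and 858 to 941 (median 903) in old mice, and with letter A 802 to 807 and 632 to 788. The sum over 14 erythroid genes was 873 to 1671 in young and 927 to 2078 in old mice, and *Klf1*, a defining erythroid factor, had 9.01 ± 3.61 (SD, n = 5) and 12.8 ± 8.32 (SD, n = 7). The letters went opposite ways for *Klf1*, on 8 to 49 reads per mouse. With letter A it was 3.42 to 11.1 in young and 17.9 to 21.3 in old mice, and with letter B 8.05 to 12.9 and 2.02 to 7.18. With letter A the sum over 14 granulocyte and macrophage genes was 298 to 342 in the 2 young and 593 to 4419 in the 4 old mice, without overlap. With letter B it was 282 to 926 in the 3 young and 263 to 327 in the 3 old mice. The sum over 12 B and T cell genes was 89.9 to 245 in young and 80.1 to 334 in old mice. The part of these cells in the values of the platelet genes was not tested. Among the 11 tested genes of stem cell sort and identity, *Cd34* was called lower in old mice with the letter as a covariate, with 182 ± 53.0 (SD, n = 5) and 84.6 ± 10.4 (SD, n = 7) normalized read counts (difference -0.99, limma adjusted p = 0.00856). The paper defines HSCs as CD34-, while the LSK-SLAM sort did not use CD34, and the share of CD34+ cells was not tested. *Slamf1*, a marker of the sort, had 74.3 ± 10.4 (SD, n = 5) and 106 ± 37.2 (SD, n = 7), with limma adjusted p-values of 1.0 without and 0.838 with the letter.

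For *Vwf*, the genes with the most similar pattern over the 12 mice were sought after values had been centred within each age and letter. By Pearson's r, out of 12347 genes compared, these were *Cdca7* (0.97), *Selp* (0.93), *Ica1l* (0.93), *Prkcq* (0.92) and *Efna1* (0.91). Among the members, *Gp9* (0.66) and *Zfpm1* (0.39) had positive values of r with *Vwf*, while *Pf4* (-0.18), *Nfe2* (-0.18), *Gata1* (-0.44) and *Gp1ba* (-0.44) had negative ones. These values describe 12 mice whose libraries also differ in depth, and centring leaves fewer free values than mice. The 5 genes were picked as the highest of 12347. Values this high can arise by chance in such a search, which was not tested. The age differences of the genes most like *Vwf* were -0.47 for *Cdca7*, 0.35 for *Ica1l*, 0.09 for *Prkcq* and 0.28 for *Efna1* on the log2 scale, so that of the 5 only *Selp* was called between the ages.

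The promoters of the platelet genes *Gp1ba*, *Gp9* and *Pf4* are shown because the first pair had higher values in old mice and *Pf4* lower ones. RefSeq promoter sequences (GRCm38.p6) matched 5 of the 7 genes, and the 250 bases before the start site were searched on both strands for the GATA words, which are AGATAA together with AGATAG, as well as TGATAA together with TGATAG. The ETS words searched were CCGGAA together with CAGGAA, and the core word of NF-E2 sites was TGAGTCA. No word contains another. The sequences are written from 5′ to 3′ in the direction of the gene, and capitals mark these words.
Gp1ba (chr11:70638872-70639121, plus strand): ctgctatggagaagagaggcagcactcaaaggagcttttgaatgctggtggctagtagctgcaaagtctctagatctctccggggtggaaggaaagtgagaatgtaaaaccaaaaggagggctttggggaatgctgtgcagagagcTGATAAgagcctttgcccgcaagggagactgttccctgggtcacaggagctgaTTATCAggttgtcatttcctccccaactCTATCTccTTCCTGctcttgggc
Gp9 (chr6:87777820-87778069, plus strand): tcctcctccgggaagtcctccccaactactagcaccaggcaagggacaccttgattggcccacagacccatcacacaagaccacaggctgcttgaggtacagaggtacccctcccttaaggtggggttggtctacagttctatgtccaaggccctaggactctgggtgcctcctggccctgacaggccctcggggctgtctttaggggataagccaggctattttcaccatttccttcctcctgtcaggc
Pf4 (chr5:90772185-90772434, plus strand): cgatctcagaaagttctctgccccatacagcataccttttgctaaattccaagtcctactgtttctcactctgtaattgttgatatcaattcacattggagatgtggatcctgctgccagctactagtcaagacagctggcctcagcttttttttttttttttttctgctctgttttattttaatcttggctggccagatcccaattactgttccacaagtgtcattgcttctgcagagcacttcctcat

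*Gp1ba* held 3 GATA words, which began 104, 51 and 23 bases before the start site, and 1 ETS word 15 bases before it. *Gp9* and *Pf4* held none of the words, and neither did *Zfpm1*, while *Gata1* held 1 ETS word 126 bases before its RefSeq start. That window, chrX:7967911-7968160 on the minus strand, lies inside the annotated span of *Gata1*, not before it. Of 32851 mouse promoters of the same length 26.5% held a GATA word, 35.1% an ETS word, 4.46% the NF-E2 core and 8.52% both a GATA and an ETS word. A match describes the letters of the window alone.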

How the data were processed

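LSK-SLAM cells of 5 young and 7 old mice were grouped by age through the sample labels. The authors deposited 1 table of normalized read counts, a signal for which the reads of each gene were divided by the product of library size and a factor. Per the labels, FastQC 0.11.8, STAR 2.5.4b, edgeR 3.24.3 and mm10 were used, while the counting tool and annotation are not given in the sources used here. A second deposited table holds the authors' own comparison (log fold changes, log CPM, likelihood ratios, p-values and FDR) and was not used. Whole reads were recovered for 100% of values within a tolerance of 0.001 reads.

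Values were tested with limma 3.58.1 in R 4.3.3 (lmFit, and eBayes with its trend option) on log2(value + 1), with Benjamini-Hochberg adjustment over 12354 genes. A pseudocount of 1 and a minimum mean of 10 were used. Depth per mouse was 0.861 M to 5.12 M recovered reads (M, 1000000), and counting error is largest in the shallowest libraries. Single genes were compared by two-sided exact permutation tests. Alternatives were other pseudocounts and minimum means, no trend, the letter, either letter alone, a replicate block, median-ratio rescaling, edgeR 4.0.16, DESeq2 1.42.0 and leaving out each mouse. Other steps ran in Python 3.11.15 with pandas 2.3.3, scipy 1.17.1 and numpy 2.4.6, and procedures were tested on simulated data.

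The members and the gene lists were chosen with earlier results of these data known. Named genes were all members, list genes called for age, the 2 largest rises and falls of each of 5 lists, *Itga2b*, *Slamf1*, *Cdh5*, *Klf1*, *Ppbp*, and the 5 genes most like *Vwf*. *Kit* and *Cd48* were added to check the sort. Positions and exon lengths came from GENCODE vM21, in which 18745 of 18762 identifiers were found. Young and old mice with the same replicate number are different animals. Some genes of these lists are not reported here.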

Additional observations from a re-analysis of the deposited data

Results flagged for a closer look

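Of 72 groups of named genes and ages examined, 5 held a mouse that stood apart from the others of its age by Dixon's test, against 3.6 expected by chance. Young mouse 1 had the lowest *Vwf*, with 183 normalized read counts against 298 to 341 in the other young mice, and the lowest *Selp*, with 58.5 against 106 to 113. Young mouse 2 had 248.5 normalized read counts of *Stat3* against 368 to 398, and 40.9 of *Efna1* against 25.5 to 27.6. Old mouse 1 had 47.0 normalized read counts of *Ica1l* against 9.47 to 25.5 in the other old mice.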

How the results depend on the processing

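None of the 7 members was called for age in the analysis without the letter, under other pseudocounts and minimum means, without the trend, with the letter, with edgeR (with or without the letter) or DESeq2, or after median-ratio rescaling, nor when any single mouse was left out of the fit without the letter. With letter B alone 2 were called, and in the fit with the letter *Vwf* was called without old mouse 5 (adjusted p = 0.000632) and without young mouse 2 (0.0353). Apart from leaving mice out of the fit with the letter, *Vwf* (0.62 to 1.0) and *Gp1ba* (0.43 to 0.65) kept positive differences and *Pf4* (-2.11 to -0.40) and *Gata1* (-0.95 to -0.42) negative ones. Over all genes 13 were called, against 2 without the trend, 37 with the letter, 1 with letter A alone, 100 with letter B alone, 46 by DESeq2, 44 by edgeR with the letter and 5 after median-ratio rescaling, and 3 to 32 when 1 mouse was left out (32 without old mouse 5). With the letter as a covariate, leaving out a mouse gave 23 to 76 genes (76 without old mouse 5), for the difference between letters 2943 to 5003 of 4462, and for the interaction 0 to 6 of 2. Median-ratio rescaling changed the split of the genes called between letters from 1301 higher in B of 4462 to 3360 of 5896. Deviations of same-numbered mice from the mean of their age correlated between -0.559 and 0.615 over 5 pairs (mean 0.136, against -0.0230 for different numbers). These deviations also hold the difference between letters, so they cannot decide whether the replicate numbers pair the mice. A replicate block for the numbers 1 to 5 called 19 genes and 0 members, and without the block in the same mice 8 genes.

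Some differences changed sign, none of them called on either side, and the cause was not tested. With letter B alone these were *Zfpm1* (0.34), *Klf1* (-1.24), *Gucy1b1* (-0.63), *Pdgfa* (-0.28), *Cdh5* (-0.34) and *Ldb1* (0.0013). With letter A alone they were *Cdh5* (-0.19), *Prkcq* (-0.13), *Ica1l* (-0.044), *Itga2b* (-0.011) and *Serpine2* (0.074). With replicates 1 to 5, with or without the block, they were *Zfpm1* (0.047), *Nfe2* (0.0046), *Klf1* (-0.14) and *Cdh5* (-0.32). With edgeR and the letter they were *Zfpm1* (0.020), *Klf1* (-0.13) and *Cdh5* (-0.31). *Cdh5* was -0.27 with the letter and -0.024 after rescaling. Leaving out a mouse moved *Cdh5* between -0.24 and 0.31, *Itga2b* between -0.027 and 0.21 and *Klf1* between -0.063 and 0.51. The edgeR test with the letter and replicates 1 to 5 without the block were added after the data were seen. *Gata1* rests on 3 to 107 reads per mouse, *Pf4* on 8 to 285 and *Ppbp* on 1 to 39.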
